A study of Mus musculus with 20 samples.

Results

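Expression of 9 regulators of muscle gene transcription was described in extraocular and leg muscle of mdx and control mice: the myogenic factors Myod1, Myog, Myf5 and Myf6, the MEF2 factors Mef2a and Mef2c, and the inhibitors Id1, Id2 and Id3. They were found by gene symbol in the platform annotation and are 9 of the 8221 genes that it names with a probe set of their own. They account for 13 of 12588 probe sets that are not array controls. Of these 13, 12 passed the filter on dim signals and were tested, at least 1 for every gene. The other, Mef2a 94133_r_at, lay between 9.754 and 93.94 on the 20 arrays and gives no usable value.

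RNA came from 8-week-old mice, and each group held 5 one-colour Affymetrix arrays: extraocular muscle (EOM) of mdx mice, EOM of wild-type control mice, leg muscle of mdx mice, and leg muscle of wild-type control mice. mdx mice carry a nonsense mutation in Dmd, the dystrophin gene, and lack the protein that links the muscle fibre cytoskeleton to its membrane; no other allele or treatment is named for any group. Control leg tissue is labelled gastrocnemius and soleus, whereas mdx leg tissue is labelled only as leg muscle, so a difference in the muscles taken cannot be told apart from genotype there. In both muscles the mdx and control arrays also carry different description labels, and anything that went with those labels cannot be told apart from genotype either. Arrays within a group are labelled as replicates with no mention of separate animals; the p-values therefore rest on array-to-array spread, part of which may be technical.

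The myogenic factors are basic helix-loop-helix proteins that pair with E proteins and bind the E box, a short DNA motif in the control regions of many muscle genes. Myf5 and Myod1 set muscle precursor cells on the muscle path, Myog drives their differentiation into fibres, and Myf6 (MRF4) is the member most abundant in mature fibres. MEF2 proteins bind a separate A/T-rich site and act together with the myogenic factors. Id proteins have a helix-loop-helix but no basic region. They bind E proteins into pairs that cannot bind DNA, and so hold back differentiation. In adult muscle the myogenic factors are switched on in satellite cells, the resident stem cells, when damaged fibres are rebuilt, and Id genes are expressed in many cell types besides muscle.

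Signals are intensities scaled to a 2% trimmed mean of 500 per array, and differences are log2 values with signals under 50 set to 50. A difference was called when its limma p-value, adjusted over the 7204 tested probe sets of that comparison, was under 0.05. Between 47.2% and 52.0% of probe sets reached 200 on an array. Of 8 skeletal muscle markers on the array, 7 passed the filter, and Myh2 lay under 50 on 3 of 5 arrays in every group. The summed signal of the 8 was 34163 or more on each array. Single markers could vary widely among leg arrays. Acta1 lay between 320.7 and 10610 in mdx and between 591.8 and 24690 in control leg muscle. In EOM it lay between 7796 and 15000 in mdx and between 3477 and 12800 in control. Mb was steadier, at 5225 to 8710 in mdx and 6649 to 11070 in control leg muscle. The limb position genes Hoxc9 and Hoxd8 were lower in EOM than in leg muscle of both genotypes, with limma adjusted p between 0.000182 and 0.0176, while Pitx1, also listed for limb position, was higher in EOM. Hoxc9 lay at 116.9 or below on every EOM array. It passed the filter only through leg arrays, and its calls are descriptions that the filter favours. The array labelled leg control 4 had a Hoxd8 signal of 94.93, near the EOM values, and the mean correlation of leg control 1 with the rest of its group (0.892) was below that of any other array. Results that rest on these 2 arrays are therefore also given without them. Dmd signal averaged 119 ± 31.7 in mdx and 268 ± 47.4 in control EOM, and 77.5 ± 32.3 in mdx and 149 ± 40.2 in control leg muscle (SD, n = 5 each); limma adjusted p was 0.233 in EOM and 0.0323 in leg muscle.

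**Figure D1:**
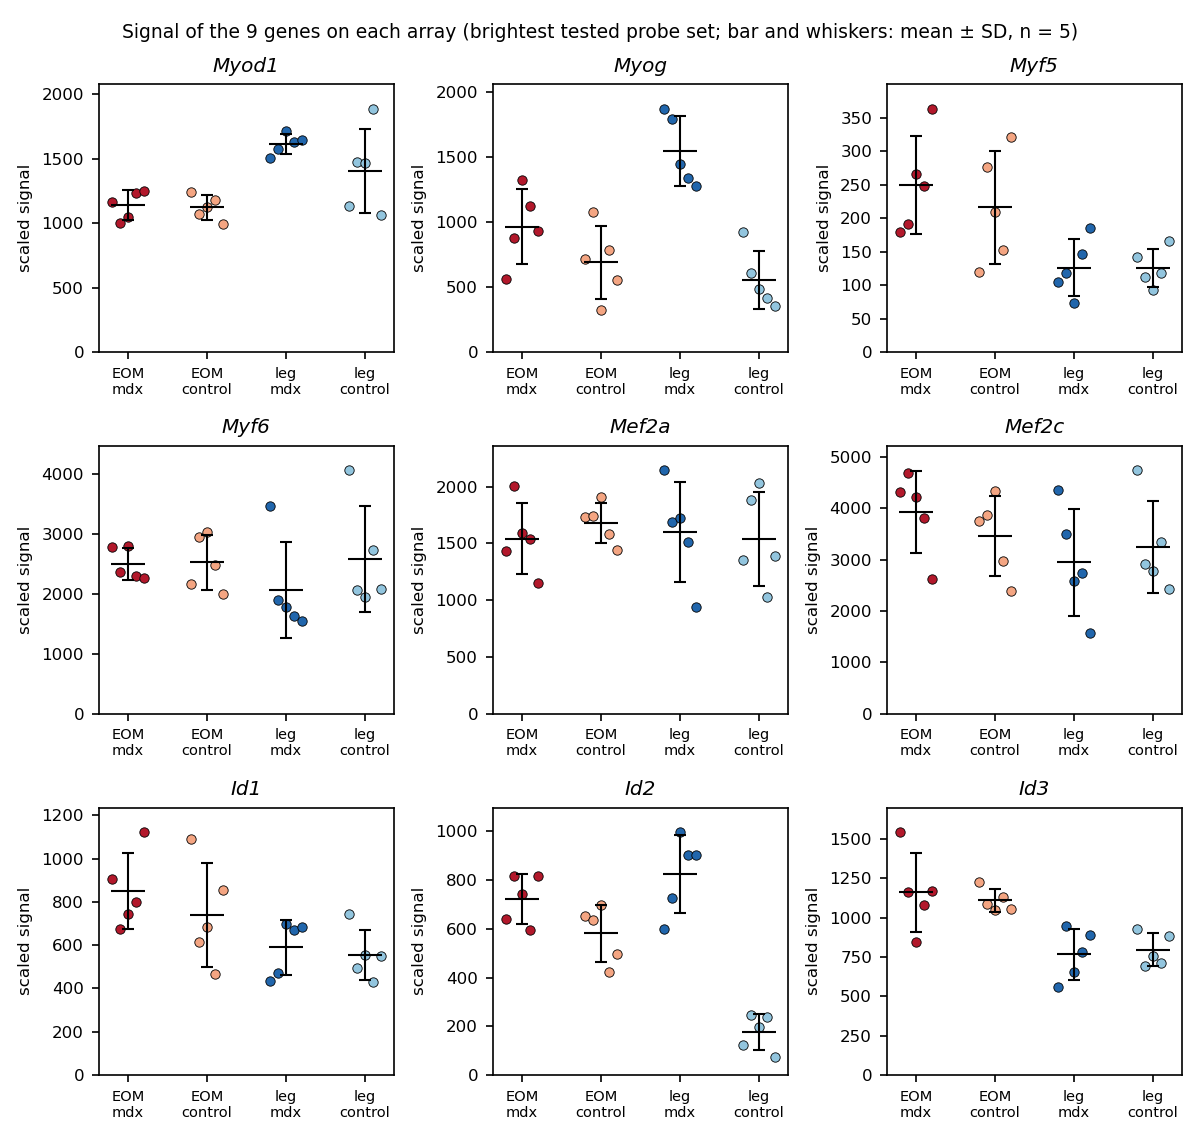
Scaled signal (vertical axis, linear, from 0) of each of the 9 genes on each of the 20 arrays, by group, with mean and SD (n = 5) as bar and whiskers. The 5 leg control arrays of Id2 lie at 245.4 or below and all 15 other arrays at 424.4 or above. For Myog the 5 leg mdx arrays lie at 1278 or above and the leg control arrays at 921.6 or below.

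Id2 and Myog are the genes on which the mdx comparison in leg muscle turns, and the bases in front of their start sites are shown as the sequence on which E box and MEF2 proteins could act. Each line holds the 250 bases before the RefSeq start (GRCm38.p6), 5′ to 3′ on the gene's strand, with E boxes (CANNTG) and the MEF2 core in capitals. The core searched was TA, then 4 bases that are each A or T, then TA. The Id2 window is chr12:25096093-25096342, minus strand, and the Myog window is chr1:134289754-134290003, plus strand.
Id2: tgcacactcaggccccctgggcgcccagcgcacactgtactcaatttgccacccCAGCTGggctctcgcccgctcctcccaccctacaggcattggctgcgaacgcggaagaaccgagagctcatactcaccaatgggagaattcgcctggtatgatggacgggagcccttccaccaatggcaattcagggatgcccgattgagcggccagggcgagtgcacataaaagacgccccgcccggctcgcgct
Myog: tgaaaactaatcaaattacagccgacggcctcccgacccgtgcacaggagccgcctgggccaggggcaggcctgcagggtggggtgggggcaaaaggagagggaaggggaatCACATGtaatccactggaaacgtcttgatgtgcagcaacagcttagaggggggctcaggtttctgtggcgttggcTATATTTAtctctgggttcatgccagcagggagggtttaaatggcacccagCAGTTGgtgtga
The Id2 window holds 1 E box, CAGCTG, between 196 and 191 bases before the start, and no MEF2 core. The Myog window holds 2 E boxes, CACATG between 138 and 133 and CAGTTG between 12 and 7 bases before the start, and 1 MEF2 core, TATATTTA, between 63 and 56. The proximal E box and the MEF2 site of the mouse Myog promoter are known from reporter studies in embryonic muscle. Searched on both strands, an E box occurs in 66.2% of all 32851 promoter windows of this length, 2 or more in 31.8%, and a MEF2 core in 8.56%. These matches describe letters only, not binding. RefSeq promoters were found for 6 of the 9 genes, and only these 2 are printed.

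The first comparison was of mdx with control leg muscle. Id2 and Myog rose, and no other member was called in either direction. That is 2 of 12 probe sets (16.7%), all higher, against 17.9% of all tested probe sets called in either direction, 10.7% called higher and 7.15% called lower. The share of members called was near that of all probe sets and is no result about the members.

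Id2, an inhibitor of E protein pairing, had signals of 997.7, 900.9, 900.6, 724.2 and 599.7 in mdx leg muscle, against 245.4, 236.7, 196.2, 123 and 74.47 in control leg muscle. All 5 mdx arrays lay above all 5 controls, which held for 13.6% of tested probe sets in one direction or the other. The means were 825 ± 159.9 and 175 ± 74.2 (SD, n = 5 each), a 5.08-fold difference (95% interval 3.50 to 7.35; log2 difference 2.34 ± 0.26 SE, limma adjusted p = 7.3e-07). Leaving out any 1 leg array kept the log2 difference between 2.07 and 2.50. It was as large without leg controls 1 and 4 together, at 2.41 (limma adjusted p = 4.97e-06).

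Myog, the differentiation factor, had signals of 1873, 1793, 1449, 1342 and 1278 in mdx leg muscle, against 921.6, 605.9, 485.5, 418.3 and 351.9 in control leg muscle. Again the groups did not overlap. The control arrays spread widely, with the highest at more than 2 times the lowest. The means were 1547 ± 269.6 and 557 ± 224.6 (SD, n = 5 each), a 2.91-fold difference (95% interval 1.94 to 4.38; log2 difference 1.54 ± 0.28 SE, limma adjusted p = 0.000443). With 1 array left out the log2 difference was between 1.40 and 1.74, and without leg controls 1 and 4 it was 1.70 (limma adjusted p = 0.000587).

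Of the other myogenic factors, Myod1 had signals of 1713, 1649, 1632, 1576 and 1503 in mdx leg muscle, against 1888, 1475, 1468, 1136 and 1066 in control leg muscle. The mdx arrays lay close together inside the wider range of the controls (SD 79.5 and 327). The log2 difference was 0.23 (95% interval -0.04 to 0.50, limma adjusted p = 0.261). Myf5, a factor of muscle precursors, was dim in both leg groups, between 73.36 and 185.8 in mdx and between 93.35 and 166.1 in control. Its log2 difference was -0.04, with an interval wide enough (-0.69 to 0.61) to hold changes of about 1.5-fold either way. Myf6, the factor of mature fibres, had 3467, 1890, 1773, 1632 and 1546 in mdx and 4057, 2732, 2080, 2066 and 1947 in control leg muscle. In each group 1 array, the one numbered 1, stood well above the rest, and the log2 difference of -0.33 (95% interval -0.76 to 0.10, limma adjusted p = 0.307) moved to -0.54 (limma adjusted p = 0.0426) without the mdx array. It moved the other way, to -0.15 (limma adjusted p = 0.65), without the control array, and to -0.05 (limma adjusted p = 0.916) without leg controls 1 and 4. The size of the Myf6 value thus depends on 1 array of each group.

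The MEF2 factors showed no called difference in leg muscle. Mef2a lay between 934.2 and 2143 in mdx and between 1024 and 2033 in control leg muscle (log2 difference 0.05, 95% interval -0.37 to 0.46). Mef2c, represented by 104592_i_at, lay between 1567 and 4351 in mdx and between 2430 and 4743 in control leg muscle (log2 difference -0.18, 95% interval -0.67 to 0.31). Its other 3 probe sets gave log2 differences of 0.12, -0.02 and 0.13, so the 4 probe sets did not share a sign, and none was called.

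The inhibitors other than Id2 did not differ detectably in leg muscle. Id1 had signals of 695.8, 683.5, 670.5, 471.7 and 433.5 in mdx and 743.3, 556.9, 548.4, 496.5 and 427.7 in control leg muscle, and the groups overlapped almost wholly. Its log2 difference was 0.09 (95% interval -0.35 to 0.53, limma adjusted p = 0.828). Id3 had signals of 947.8, 893.1, 779.2, 653.8 and 560.5 in mdx and 927.8, 886.7, 753.7, 713 and 695.8 in control leg muscle, with a log2 difference of -0.07 (95% interval -0.39 to 0.25, limma adjusted p = 0.812). The upper bounds for Id1 and Id3 lie below the lower bound for Id2 (1.81). These intervals are of single comparisons, and the difference between Id genes was not tested.

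Bulk signal does not separate more cells of a type from more RNA per cell. Of 16 tested macrophage markers, 16 rose in mdx leg muscle, where 10.7% of all probe sets were called higher. The filter favours that count, since a marker could pass through the mdx leg arrays alone. Cd53, for example, lay at 789.6 or above in mdx and at 78.41 or below in control leg muscle. The summed signal over all 21 listed macrophage genes, tested or not, lay between 45418 and 59271 in mdx, against 5823.8 to 7914.5 in control leg muscle. Of 12 tested fibroblast markers, 11 rose (8 without leg controls 1 and 4), with summed signals of 53070 to 61499 in mdx and 25522 to 33419 in control leg muscle. The summed signal of 19 genes listed for satellite cells overlapped, at 9365 to 10316 in mdx and 9054 to 10594 in control leg muscle. Des, also listed as a skeletal muscle marker, is part of that sum and averaged 2549 in mdx and 2960 in control leg muscle. Of 12 tested genes of the list, 2 rose and 2 fell. The sum is therefore no measure of satellite cell number, and Pax7 was not analysed here. The part of these cell types in the Id2 and Myog differences was not tested.

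The same comparison in EOM called none of the 12 member probe sets, and none reached an unadjusted p of 0.05 either. By limma, 6 of 7204 probe sets (0.0833%) were called there, 0.0416% as higher and 0.0416% as lower, 369 had an unadjusted p under 0.05, and groups did not overlap for 1.15%. Across the 9 genes the log2 difference lay between -0.14 and 0.53, against a median of -0.02 over all tested probe sets.

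Myog had signals of 1328, 1128, 930.4, 879.6 and 558.7 in mdx EOM, against 1078, 783.6, 718.9, 555.4 and 322 in control EOM. The groups overlapped, although each mdx value was above the control value of the same rank. The log2 difference was 0.53 (95% interval -0.06 to 1.12, limma adjusted p = 0.981). Id2 had signals of 817.9, 814.9, 741.9, 639.5 and 595.9 in mdx EOM, against 699.1, 651.8, 635.2, 495.6 and 424.4 in control EOM, again overlapping. Its log2 difference was 0.33 (95% interval -0.21 to 0.86, limma adjusted p = 0.999), an interval that lies wholly below the one for leg muscle.

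For the other genes the EOM groups lay over each other. Myod1 had 1253, 1238, 1167, 1047 and 1002 in mdx and 1244, 1183, 1122, 1074 and 996.2 in control EOM, with the narrowest interval among the 9 genes (log2 difference 0.02, 95% interval -0.25 to 0.29). Myf6 lay between 2255 and 2796 in mdx and between 1990 and 3030 in control EOM, and Myf5 between 179.2 and 363.3 in mdx and between 120.1 and 321.5 in control EOM. Mef2a gave a log2 difference of -0.14 and the 4 Mef2c probe sets gave values between -0.18 and 0.19. Id1 lay between 673.5 and 1124 in mdx and between 465.5 and 1090 in control EOM (log2 difference 0.23, 95% interval -0.20 to 0.67). Id3 had a log2 difference of 0.04 (95% interval -0.28 to 0.36). None of these intervals reaches a doubling or a halving of signal.

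Whether the mdx effect differed between the muscles was tested directly. Id2 was called, 1 of 12 member probe sets (8.33%) against 6.22% of all probe sets, 4.93% with the higher effect in leg and 1.29% with the lower. The mdx effect on Id2 was 4.05-fold larger in leg than in EOM (95% interval 2.40 to 6.84; log2 difference of effects 2.02 ± 0.36 SE, limma adjusted p = 0.00129), and it was 2.08 without leg controls 1 and 4 (limma adjusted p = 0.00174). For Myog the difference of effects was 1.01 (95% interval 0.18 to 1.84, limma adjusted p = 0.164) and was not called. So Myog passed in leg and not in EOM, but its effects were not shown to differ; without EOM control 3 the value was 1.26 (limma adjusted p = 0.0448). The other genes had differences of effects between -0.37 and 0.21.

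**Figure D2:**
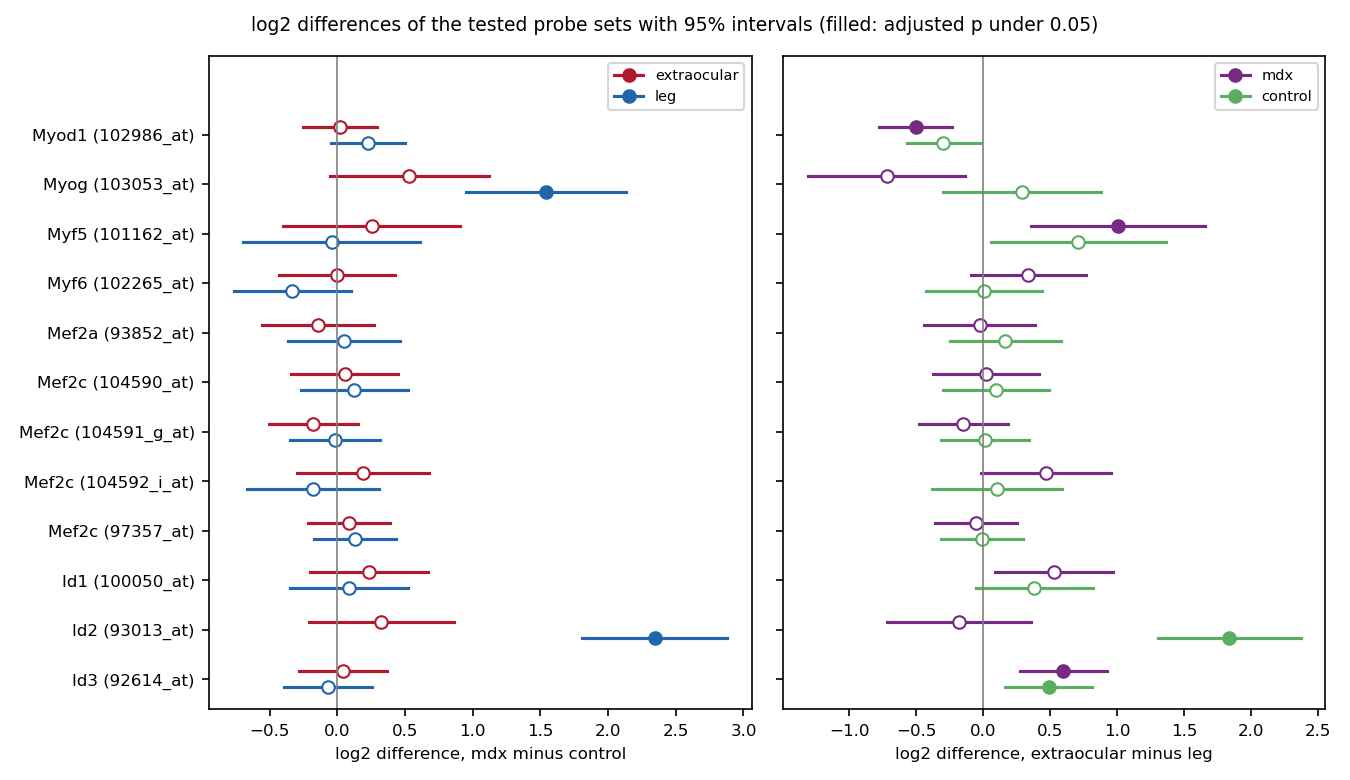
log2 differences (horizontal axes) with 95% intervals for the 12 tested probe sets, mdx minus control in each muscle (left) and EOM minus leg in each genotype (right). Filled points have an adjusted p under 0.05. Id2 stands at 2.34 in leg and 0.33 in EOM on the left, and at -0.18 in mdx and 1.84 in control on the right.

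The muscles were then compared within each genotype. These comparisons reuse the same arrays as those above: the leg control arrays with their low Id2 signals enter the leg, the difference and the control muscle comparison, and the 3 Id2 calls are not separate evidence.

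In control mice Id2 and Id3 were higher in EOM than in leg muscle, 2 of 12 probe sets (16.7%), against 17.7% of all probe sets called either way, 10.3% higher and 7.41% lower. Id2 averaged 581 ± 115.9 in EOM and 175 ± 74.2 in leg muscle (SD, n = 5 each), 3.57-fold higher in EOM (95% interval 2.47 to 5.18, limma adjusted p = 2.28e-05). The lowest EOM array (424.4) lay above the highest leg array (245.4); 13.5% of all probe sets had such separated groups. Id3 had signals of 1224, 1130, 1089, 1056 and 1052 in control EOM, against 927.8, 886.7, 753.7, 713 and 695.8 in control leg muscle, with no overlap. The difference was 1.40-fold (95% interval 1.12 to 1.76, limma adjusted p = 0.0332). This call was close to the threshold: it ended in 6 of 10 fits without 1 array (highest limma adjusted p = 0.0819, without leg control 2; the others were without leg control 3 or 4 and EOM control 1, 2 or 4) and without leg controls 1 and 4 together (log2 difference 0.52, limma adjusted p = 0.0603).

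The other members were not called between the control muscles. Myod1 had a log2 difference of -0.30 (95% interval -0.57 to -0.03, limma adjusted p = 0.131), Myf5 one of 0.71 (0.06 to 1.36, limma adjusted p = 0.132) and Id1 one of 0.38 (-0.06 to 0.82, limma adjusted p = 0.243). The first 2 of these were below 0.05 before adjustment. Myog differed by 0.29 (limma adjusted p = 0.557), Myf6 by 0.01, Mef2a by 0.17 and the Mef2c probe sets by -0.01 to 0.10.

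In mdx mice 3 of 12 probe sets (25%) were called between the muscles, against 18.1% of all probe sets. Id3 and Myf5 were higher in EOM (16.7% of members, against 9.24%) and Myod1 was lower in EOM (8.33%, against 8.83%). Myf5 passed the filter on dim signals only through EOM arrays, so the 25% and 16.7% are favoured by the filter. These shares are no result about the members. Myod1 averaged 1142 ± 113 in EOM and 1615 ± 79.5 in leg muscle (SD, n = 5 each), 1.42-fold lower in EOM (log2 difference -0.50, 95% interval -0.78 to -0.23, limma adjusted p = 0.00868). Its highest EOM array (1253) lay below its lowest leg array (1503), as in 14.4% of all probe sets in one direction or the other. Its call held in each fit without 1 array, with a limma adjusted p of at most 0.0287.

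Id3 had signals of 1546, 1169, 1161, 1080 and 847.8 in mdx EOM, against 947.8, 893.1, 779.2, 653.8 and 560.5 in mdx leg muscle. Only the lowest EOM array fell within the range of the leg arrays. The difference was 1.51-fold (95% interval 1.21 to 1.90, limma adjusted p = 0.00897; at most 0.0336 without 1 array). Id3 was thus the only member called between the muscles in both genotypes, with values of 0.60 in mdx and 0.49 in control mice on the log2 scale.

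Myf5 had signals of 363.3, 265.3, 247.9, 191.3 and 179.2 in mdx EOM, against 185.8, 147.1, 118.6, 105.1 and 73.36 in mdx leg muscle. The groups overlapped by 1 array each. The difference was 2.01-fold (95% interval 1.28 to 3.16, limma adjusted p = 0.0283). Of the 20 arrays 6 reached a signal of 200, all of them from EOM, so Myf5 passed the filter only through the muscle in which it was brighter, and its call is a description that the filter favours. It also ended in 6 of 10 fits without 1 array, which left out leg mdx 1, 2 or 3 or EOM mdx 3, 4 or 5 (highest limma adjusted p = 0.0861, without leg mdx 3).

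Id2 was not called between the muscles in mdx mice, at 722 ± 101 in EOM and 825 ± 159.9 in leg muscle (SD, n = 5 each; log2 difference -0.18, 95% interval -0.71 to 0.35, limma adjusted p = 0.705). Myog had a log2 difference of -0.72 (95% interval -1.31 to -0.13, limma adjusted p = 0.0846) and Id1 one of 0.53 (0.09 to 0.97, limma adjusted p = 0.0884), neither of them called. Myf6 without leg mdx 1 gave 0.54 (limma adjusted p = 0.043), against 0.34 (limma adjusted p = 0.302) with all arrays.

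Markers of some other cell types differed between the muscles, to a degree that varied with cell type and genotype. Of 14 tested endothelial markers, 6 were higher and 1 lower in EOM than in leg muscle of mdx mice, and 1 was higher in control mice. Their summed signal was 8143 to 11438 in EOM and 6043 to 8012 in leg muscle of mdx mice. In control mice it was 8838 to 11204 in EOM and 6167 to 9367 in leg muscle, and these ranges overlapped. Of 7 smooth muscle markers, 5 were higher and 0 lower in EOM in each genotype (5 and 1 in control mice without leg controls 1 and 4). Of 3 tested Schwann cell markers, 3 were higher in EOM in each genotype (2 in control mice without leg controls 1 and 4). Macrophage markers were lower in EOM of mdx mice for 16 of 16, with summed signals of 9515.3 to 17329 in EOM and 45418 to 59271 in leg muscle. The filter favours this count too, since a marker could pass through the mdx leg arrays alone. In control mice 3 of 16 macrophage markers and 4 of 12 fibroblast markers were higher in EOM (2 and 4 without leg controls 1 and 4). In mdx mice 2 of 12 fibroblast markers were lower. Over all probe sets 10.3% were higher and 7.41% lower in EOM than in leg muscle of control mice. In mdx mice these shares were 9.24% and 8.83%. Id genes are known to be expressed in vessel cells among others, and the part of these cell types in the member values was not tested.

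The order of the 4 groups differed from gene to gene. For Id2 it was leg mdx, EOM mdx, EOM control and leg control, and of the neighbours in this order only EOM control and leg control differed. Myog had the same order of groups, with means of 1547 in leg mdx, 965 in EOM mdx, 692 in EOM control and 557 in leg control, but no pair of neighbours differed by the test. The ends, leg mdx and leg control, did; leg mdx was not compared with EOM control, nor EOM mdx with leg control. Myod1 ran from leg mdx (1615) through leg control (1407) and EOM mdx (1142) to EOM control (1124); leg mdx and leg control did not differ by the test, nor did the EOM groups. Id1 and Id3 both ran with the EOM groups above the leg groups, which for Id1 averaged 849.9 in mdx EOM, 741 in control EOM, 591 in mdx leg and 554.6 in control leg muscle. Mef2a means lay within 1537 to 1681 and had no called pair.

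**Figure D3:**
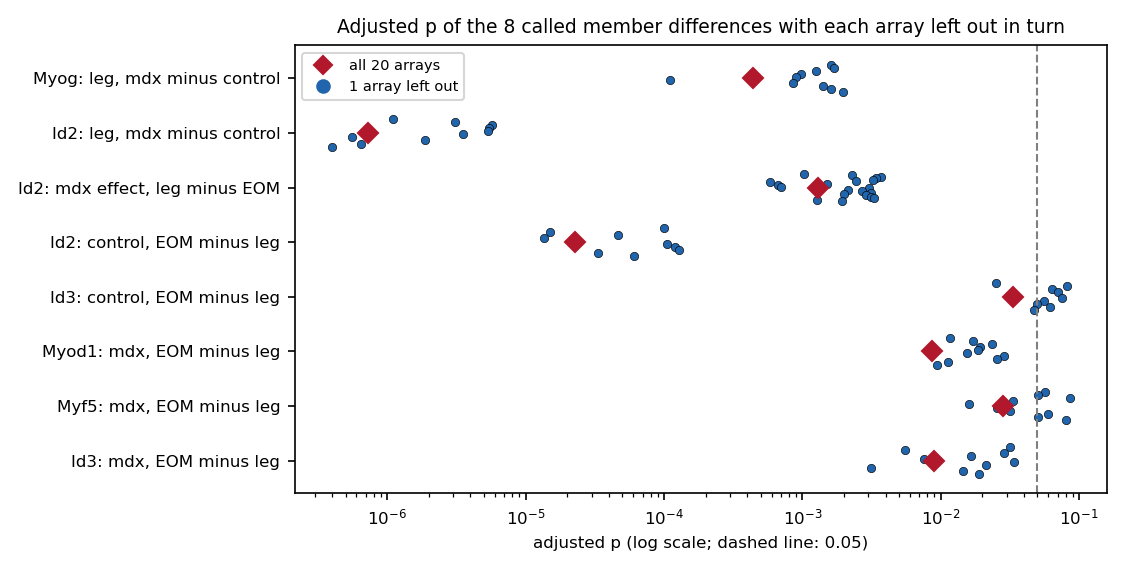
Adjusted p (horizontal axis, log scale) of the 8 called member differences with all 20 arrays (diamonds) and with each relevant array left out in turn (circles); the dashed line marks 0.05. Every circle of Id2, Myog, Myod1 and of Id3 in mdx mice lies left of the line, while 6 of 10 circles each of Id3 in control mice and Myf5 in mdx mice lie right of it.

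Genes that the myogenic factors are known to switch on, or that mark fibre formation, were taken as a list of 35, of which 30 had a tested probe set. In mdx leg muscle 9 of the 30 were called higher and 0 lower (8 higher without leg controls 1 and 4). Over all probe sets 10.7% were called higher and 7.15% lower. The log2 difference was positive for 20 of the 30 and negative for 10, with a lowest value of -0.86. The median was 0.32 over the list and -0.06 over all probe sets. The developmental myosins Myh3 and Myh8 did not rise. Myh3 averaged 383 ± 202 in mdx and 607 ± 128.5 in control leg muscle (SD, n = 5 each). Myh8 averaged 477 ± 51.2 in mdx and 552 ± 147 in control leg muscle. The 4 genes named next had the smallest adjusted p of the list. Chrna1, the alpha subunit of the muscle acetylcholine receptor, averaged 1161 ± 80.8 in mdx and 273.7 ± 63.7 in control leg muscle (SD, n = 5 each), 4.32-fold higher (limma adjusted p = 1.12e-08). Tnnt2, the troponin T of heart and of developing muscle, averaged 752 ± 113 in mdx and 160 ± 22.8 in control leg muscle, 4.69-fold higher (limma adjusted p = 2.88e-09). Peg3 and Igf2 are imprinted growth genes, the second of which codes for a growth factor of muscle formation. Peg3 averaged 1966 ± 341 in mdx and 476 ± 107 in control leg muscle, 4.15-fold higher, and Igf2 averaged 5704 ± 909.9 in mdx and 1851 ± 226 in control leg muscle, 3.07-fold higher (limma adjusted p = 1.75e-09 and 7.51e-07).

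In EOM 0 of the 30 were called by limma between mdx and control, with 0 at an unadjusted p under 0.05 and a median log2 difference of 0.16. The difference of effects was called for 5 of the 30, all larger in leg. Over all probe sets 6.22% were called there, 4.93% with the higher effect in leg and 1.29% with the lower. In control mice 8 of the 30 were higher and 0 lower in EOM than in leg muscle (9 and 2 without leg controls 1 and 4). Over all probe sets 10.3% were higher and 7.41% lower there. Among the 8 genes Chrna1 was 6.03-fold, Peg3 4.86-fold, Chrnb1, the receptor's beta subunit, 2.17-fold and Tnnt2 2.14-fold higher in EOM (limma adjusted p at most 5.28e-05). In mdx mice 6 of the 30 were higher and 5 lower in EOM, against 9.24% and 8.83% of all probe sets. Chrne, the subunit of the adult receptor, was 2.90-fold higher in EOM, while Mybph, Igf2 and Tnnt2 were lower by log2 differences of -1.84, -0.87 and -0.84 (limma adjusted p at most 0.00129). Tnnt2, like Id2 and Myog, thus had its highest mean in mdx leg muscle and its lowest in control leg muscle.

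**Figure D4:**
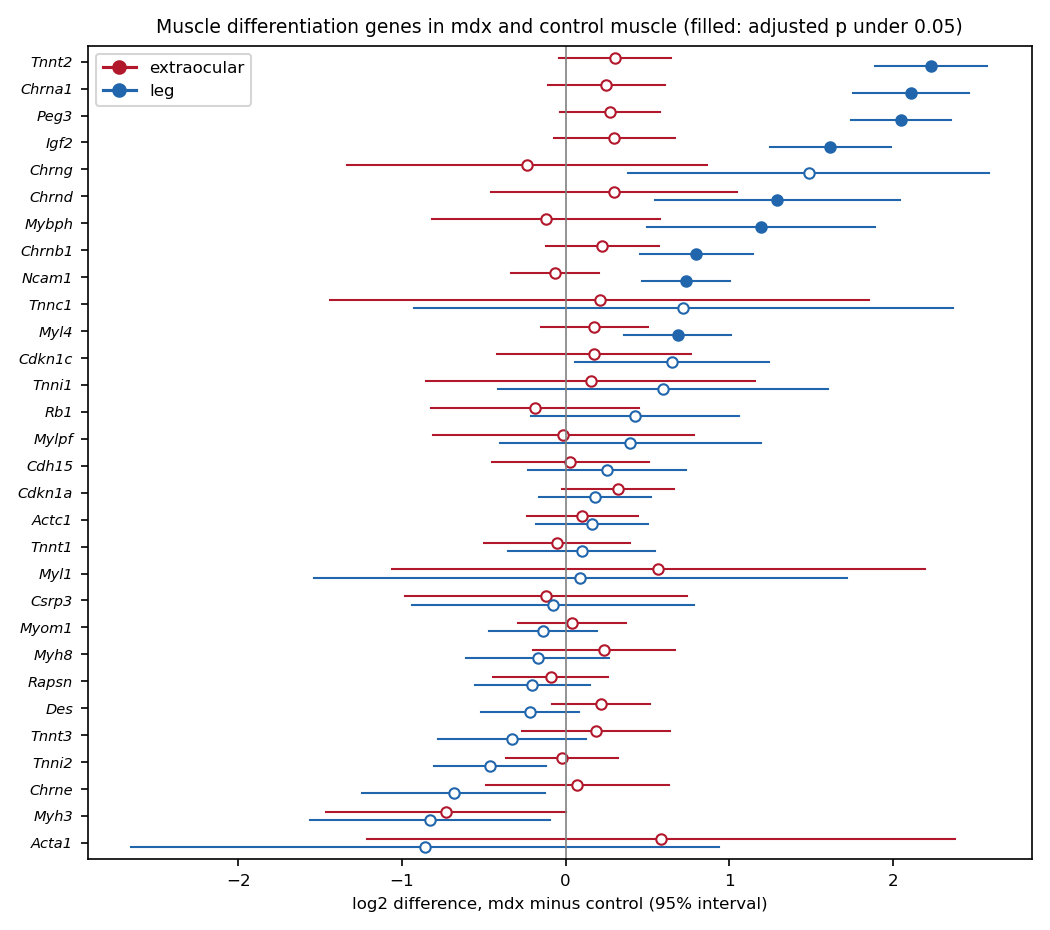
log2 differences, mdx minus control, with 95% intervals (horizontal axis) for the 30 tested genes of the list of myogenic factor targets and fibre formation genes, in EOM and leg muscle. Filled points have an adjusted p under 0.05: 9 in leg muscle, all to the right of 0 and led by Tnnt2, Chrna1, Peg3 and Igf2, and 0 in EOM. In leg muscle 10 of the 30 values lie to the left of 0, all of them open points.

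E proteins are the pairing partners of the myogenic factors and the targets of the Id proteins. Of the 3 E proteins, 2 had a tested probe set. Tcf3 averaged 587 ± 59.8 in mdx and 586 ± 119 in control leg muscle, and Tcf12 averaged 1122 ± 175.8 in mdx and 914 ± 177.4 in control leg muscle (SD, n = 5 each; log2 difference of Tcf12 0.30, limma adjusted p = 0.254). Neither was called in any of the 5 comparisons.

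Of 15 tested repressors of helix-loop-helix factors, 3 were higher and 0 lower in mdx leg muscle (1 higher without leg controls 1 and 4). Over all probe sets 10.7% were called higher and 7.15% lower in that comparison. The same shares stand beside the leg muscle counts of each list below, and counts near them are no result about a list. Mdfic, relative of an inhibitor of the myogenic factors, averaged 767 ± 115 in mdx and 456 ± 75.1 in control leg muscle, 1.69-fold higher (limma adjusted p = 0.00145). Snai2, a repressor that binds E boxes, and Hes6, a regulator of differentiation, were 1.46-fold and 1.72-fold higher (limma adjusted p = 0.021 and 0.0313). The last 2 lost their call without leg controls 1 and 4 (limma adjusted p = 0.107 and 0.0917), Snai2 also in 3 of 10 fits without 1 array (leg mdx 2 or 3, or leg control 1, limma adjusted p up to 0.0727) and Hes6 in 5 (leg mdx 3, 4 or 5, or leg control 1 or 2, up to 0.0941). By limma 0 of the 15 were called in EOM (1 at an unadjusted p under 0.05). Between control muscles Twist1 was higher in EOM (log2 difference 1.30 with 1 leg array under 50, limma adjusted p = 0.0174), which ended without leg controls 1 and 4 (0.166) and without EOM control 3 (0.0505). Bhlhe40 was lower in EOM (-0.99, limma adjusted p = 0.00178).

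Of 13 tested genes of MEF2 partners and coactivators, 0 rose and 1 fell in mdx leg muscle, Mapk14 (p38 alpha, a kinase that acts on MEF2 proteins), by a log2 difference of -0.39 (limma adjusted p = 0.0476). That call ended in 7 of 10 fits without 1 array, with a limma adjusted p of up to 0.124 without leg mdx 5, and held only without leg mdx 3 or 4 or leg control 1. Between the muscles Mapk14 averaged 777 ± 63.6 in EOM and 1789 ± 239.6 in leg muscle of mdx mice, and 922 ± 132 in EOM and 2348 ± 369 in leg muscle of control mice. The 2 log2 differences, -1.20 and -1.35, both passed (limma adjusted p = 1e-06 and 2.11e-07). Camk2b was higher in EOM by 0.55 in mdx and 0.37 in control mice (limma adjusted p = 0.00215 and 0.0372). Its control call ended without leg controls 1 and 4. Carm1 was lower in EOM of control mice by a log2 difference of -0.71 (limma adjusted p = 0.00569). Ppargc1a, a coactivator linked to oxidative fibres, was higher in EOM by 1.07 in mdx and 1.08 in control mice (limma adjusted p = 0.0158 and 0.0152); the mdx call ended without EOM mdx 2 (0.0561) and the control call without leg controls 1 and 4 (0.0602).

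BMP signals switch on Id genes in many cells, and of 16 tested genes of that pathway and other known inducers 3 rose and 2 fell in mdx leg muscle. Fstl1, a secreted protein related to follistatin, averaged 1484 ± 266 in mdx and 484 ± 95.4 in control leg muscle, 3.08-fold higher (limma adjusted p = 2.88e-06). It was also the 1 gene of this list with a called difference of effects (log2 1.69, limma adjusted p = 0.000512). Over all probe sets 6.22% were called for that difference. Without leg controls 1 and 4 the list had 2 genes with a higher and 1 with a lower mdx effect in leg than in EOM. In that fit 364 of all tested probe sets were called. Fst, follistatin, an activin and BMP antagonist, averaged 206 ± 45.6 in mdx and 77.8 ± 48.0 in control leg muscle, where 2 arrays lay under 50 (log2 difference 1.34, limma adjusted p = 0.00743). The activin receptors Acvr2b and Acvr2a fell by 0.57 and 0.49 on the log2 scale (limma adjusted p = 0.00758 and 0.0155); the second call ended without leg mdx 3 (0.0549). Smad1 and Bmp4 were not called.

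Genes with a group pattern most like that of a called member were named by the root mean square difference of their 4 centred log2 group means, among tested genes called in the same comparisons and directions. For Id2, out of 219 such probe sets, these were Cpt1a, the fatty acid entry enzyme of mitochondria (0.135), Pea15a (0.141) and Tmem45a (0.161). Cpt1a averaged 566 in mdx and 486 in control EOM, and 818 in mdx and 151 in control leg muscle. For Myog, out of 183, they were Il13ra1 (0.0677), Emp1 (0.0989) and Prelid1 (0.106). For Myod1 they were Tmem167, Naa15 and Tfdp1 (0.0187 to 0.0352), for Myf5 Ptpn13, Tek and Lpgat1 (0.0534 to 0.0854), and for Id3 Prdx2, Map1lc3a and Myl9 (0.0244 to 0.0272). The measure rests on 4 group means and describes likeness of level only.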

How the data were processed

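Total RNA of 20 muscle samples was hybridised to one-colour Affymetrix arrays. The authors deposited 1 intensity for each probe set on each array, on a linear scale between 0.4 and 95476.8. The program behind these values is not named by the labels. Their 2% trimmed mean was 1500.1 on all arrays, which shows that they had been scaled. Here each array was rescaled to a 2% trimmed mean of 500 over the 12588 probe sets other than the 66 controls, values under 50 were set to 50, and log2 was taken. Printed signals are before that floor, and folds are from log2 values. The 7204 probe sets at 200 or more on at least 5 arrays were tested with limma 3.58.1 (R 4.3.3; lmFit and eBayes with intensity trend, 4 groups, 16 residual degrees of freedom, no covariate), with Benjamini-Hochberg adjustment within each of 5 contrasts at 5%. The number of arrays limits the precision.

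By the annotation 10298 probe sets have 1 symbol, 363 have several and 1993 are unnamed here. A gene with several probe sets is represented by its brightest tested one. Called genes named from a list are among the 4 with the smallest adjusted p per contrast, and not every such gene is named. Also named are the likeness genes, Dmd, all members and some listed genes that were not called. The Hoxd8 value of leg control 4 was singled out after it was seen. The members and lists were chosen with earlier results of these data known. Promoters are from RefSeq (GRCm38.p6), cut to the 250 bases before the start. Scripts were tested on simulated data.

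The alternatives changed the scaling (deposited values, quantiles), the floor (20 or 100, or 50 added to each signal) and the filter (none, or 500). They also changed the model (without trend, with array weights, with a replicate block, with the contrasted groups alone) and the arrays (each left out in turn). The fit without leg controls 1 and 4 was added after seeing the data.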

Additional observations from a re-analysis of the deposited data

Results flagged for a closer look

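Within groups of 5, some single arrays lay far from the other 4 by Dixon's gap test at the 95% level, which chance gives in about 1 of 20 groups; 48 groups of member probe sets were examined and 4 met it. Myf6 was 3467 on leg mdx 1, against 1546 to 1890 on the other leg mdx arrays. Mef2c 104590_at was 1737 on EOM mdx 5, against 3385 to 3841, and 2266 on EOM control 5, against 3116 to 3543. Mef2c 97357_at was 1276 on EOM control 5, against 824 to 900.1, so the 2 Mef2c probe sets went opposite ways on that array. None of the 4 belongs to a called member difference.

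The mdx effect on Id2 differed between the muscles by the test of the difference itself, at 2.02 on the log2 scale (leg minus EOM, limma adjusted p = 0.00129).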

How the results depend on the processing

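Of 1399 member values under the alternatives, 0 changed sign as a called value, 16 lost and 8 gained a call; 80 values that passed in neither fit changed sign. The Id2 calls, Myog in leg muscle, and Myod1 and Id3 in mdx mice between the muscles held in every fit run, with a limma adjusted p of at most 0.00612 for Id2. The number of members called between control muscles (2) was 1 with quantile normalization, 1 with no filter, 1 with the replicate block, 1 without leg controls 1 and 4 together and 4 with array weights (Myod1 and Myf5 added), and 1 to 3 with 1 array left out. Id3 there had limma adjusted p = 0.0581, 0.0519 and 0.0531 in the first 3 of these. Members called for the difference of effects (1) numbered 1 to 2 with 1 array left out. All probe sets called in EOM, mdx against control (6), numbered 11 with a floor of 100, 3 with no filter, 11 with array weights and 3 to 11 with 1 array left out. With 1 array left out, members called numbered 2 to 3 in leg muscle (2), 0 in EOM (0) and 2 to 3 between mdx muscles (3). Single calls were gained by Myod1 between control muscles without leg control 5 (0.0434), by Myog between mdx muscles with only the groups compared (0.0261) and by Id1 there with the replicate block (0.0309). Replicate numbers were not taken to pair the arrays, since not every pair correlated over 0.1: deviations of same-numbered arrays correlated at 0.0124 to 0.18 in leg muscle, 0.0194 to 0.228 in EOM, -0.0125 to 0.0517 in control mice and -0.084 to 0.0815 in mdx mice. In leg muscle 3 of 5 pairs were over 0.1 and 3 arrays correlated best with their own number, a hint from the data and not from the design. In EOM 1 pair was over 0.1 and 2 arrays did so; in control mice and in mdx mice 0 pairs and 1 array. The fit on only the groups compared gives no difference of effects.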

Other observations

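Factors that act before the myogenic factors in muscle formation form a list of 19 genes, 8 of them tested. In mdx leg muscle 1 of the 8 fell, the homeobox factor Six4, at 390 ± 80.0 in mdx and 661 ± 114 in control leg muscle (SD, n = 5 each; log2 difference -0.77, limma adjusted p = 0.0145). Between the muscles Eya2, a cofactor of homeobox factors, was higher in EOM by log2 differences of 1.54 in mdx and 1.73 in control mice (limma adjusted p at most 0.012). Pitx1, another homeobox factor, was higher in EOM by 1.00 in mdx and 0.79 in control mice (limma adjusted p at most 0.0071). Six2 was lower in EOM by log2 differences of -1.06 in mdx and -1.57 in control mice (limma adjusted p = 0.0239 and 0.0013); the mdx call ended without leg mdx 2 or 4 or EOM mdx 4 or 5 (up to 0.0768).

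Of 12 tested genes on the satellite cell list, 2 rose and 2 fell in mdx leg muscle. The list is not specific to these cells, since Des is also among the skeletal muscle markers. Mstn, myostatin, an inhibitor of muscle growth, averaged 617 ± 166 in mdx and 1505 ± 391 in control leg muscle (log2 difference -1.30, limma adjusted p = 0.000115), and Sdc3, a syndecan, fell by 1.22 on the log2 scale (limma adjusted p = 0.00072). Ncam1, an adhesion molecule, rose by 0.74 (limma adjusted p = 0.000255), and Itga7, a laminin receptor subunit, by 0.59 (limma adjusted p = 0.0167), a call that ended without leg control 4 (0.053) and without leg controls 1 and 4 together (0.144).

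The arrays numbered 1 were the highest of their group for Myf6 in both leg groups (3467 in mdx, 4057 in control) and for Mef2c 104592_i_at (4351 in mdx, 4743 in control). The EOM arrays numbered 5 were the lowest of their group for Mef2c 104590_at (1737 in mdx, 2266 in control) and the highest for Mef2c 97357_at (1230 in mdx, 1276 in control).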
